A study of Homo sapiens with 4 samples.

Results

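The levels of 10 T-cell surface molecules that mark activation or take part in costimulation were followed in Jurkat cells treated with the BET inhibitor JQ1, with or without the T-cell mitogen PHA. They were chosen by gene name as CD69, CD40LG, IL2RA, ICOS, CD28, CD2, CD5, CD6, TNFRSF4 and TNFRSF9, which are 10 of the 50868 genes in the files. Jurkat is an established human T-cell leukemia line, labelled wild type and T lymphoblast, and a tumor line is a limited model of normal T cells. Each condition had 1 library, made after 24 h: DMSO (the solvent), 0.5 µM JQ1, DMSO with 150 ng/ml PHA, and 0.5 µM JQ1 with 150 ng/ml PHA. RNA from bulk cultures was sequenced, so fewer cells expressing a gene and less of its RNA per cell cannot be told apart. With 1 library per condition there was no replicate check. No test between conditions was made and no p-value is given: an additive model of JQ1 and PHA, with 1 residual degree of freedom over the 4 libraries, was not fitted.

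A T cell is activated through its antigen receptor together with costimulatory signals. CD28 and ICOS, receptors of the immunoglobulin superfamily, bind ligands on antigen-presenting cells and recruit phosphoinositide 3-kinase. The TNF receptor family members OX40 (TNFRSF4) and 4-1BB (TNFRSF9) signal through TRAF adaptors, and CD40 ligand (CD40LG) is the TNF family protein through which helper T cells signal to B cells. CD2 strengthens adhesion to partner cells, whereas CD5 and CD6 are scavenger-receptor proteins that tune antigen-receptor signaling. CD69 and the IL-2 receptor alpha chain (IL2RA, CD25) are widely used as activation markers. PHA is a lectin that cross-links surface glycoproteins including the antigen receptor, and JQ1 displaces BET proteins from acetylated chromatin.

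The libraries held 18620954 to 19685401 counts on genes, and 3 counts, taken as the floor, corresponded to 0.152 to 0.161 CPM (the count scaled to a common library total). HEXIM1, a transcript commonly used to follow BET inhibition, was at 36.2 and 34.6 FPKM in the libraries without JQ1 and at 109 and 104 FPKM in those with it. FPKM is the count divided by gene length and by the library's total count. All 10 T-lineage markers examined were present, and their summed level was 895 FPKM with DMSO against 778 with JQ1, or 1240 against 881 when PHA was added. Summed markers of myeloid cells stayed at 0.0839 to 0.395 FPKM, of NK cells at 0.0949 to 0.124 FPKM and of erythroid cells at 0.472 to 0.669 FPKM. The 5 B-cell markers summed to 7.56, 1.06, 6.39 and 1.01 FPKM in the order DMSO, JQ1, DMSO + PHA and JQ1 + PHA, nearly all of it CD79A, a chain of the B-cell receptor. CD79A was thus lower with JQ1 alongside the surface molecules below, while MS4A1, which encodes the B-cell antigen CD20, had at most 2 counts in any library.

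In these libraries the 10 genes fell into distinguishable patterns. CD69, CD40LG and ICOS were several-fold higher with PHA in DMSO-treated cells. Much of that difference was missing with JQ1 for CD69 and CD40LG, whereas for ICOS its loss was within counting error. CD40LG was also 6.64-fold lower with JQ1 in the absence of PHA. CD28 was higher with PHA in DMSO-treated cells and differed little with JQ1 in the absence of PHA. CD2, CD5 and CD6 were clearly expressed without PHA and were 3.0- to 7.12-fold lower with JQ1 whether or not PHA was present. TNFRSF4 was close to the floor with JQ1, IL2RA was scarcely detected outside the DMSO + PHA library, and TNFRSF9 had no counts.

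**Figure D1:**
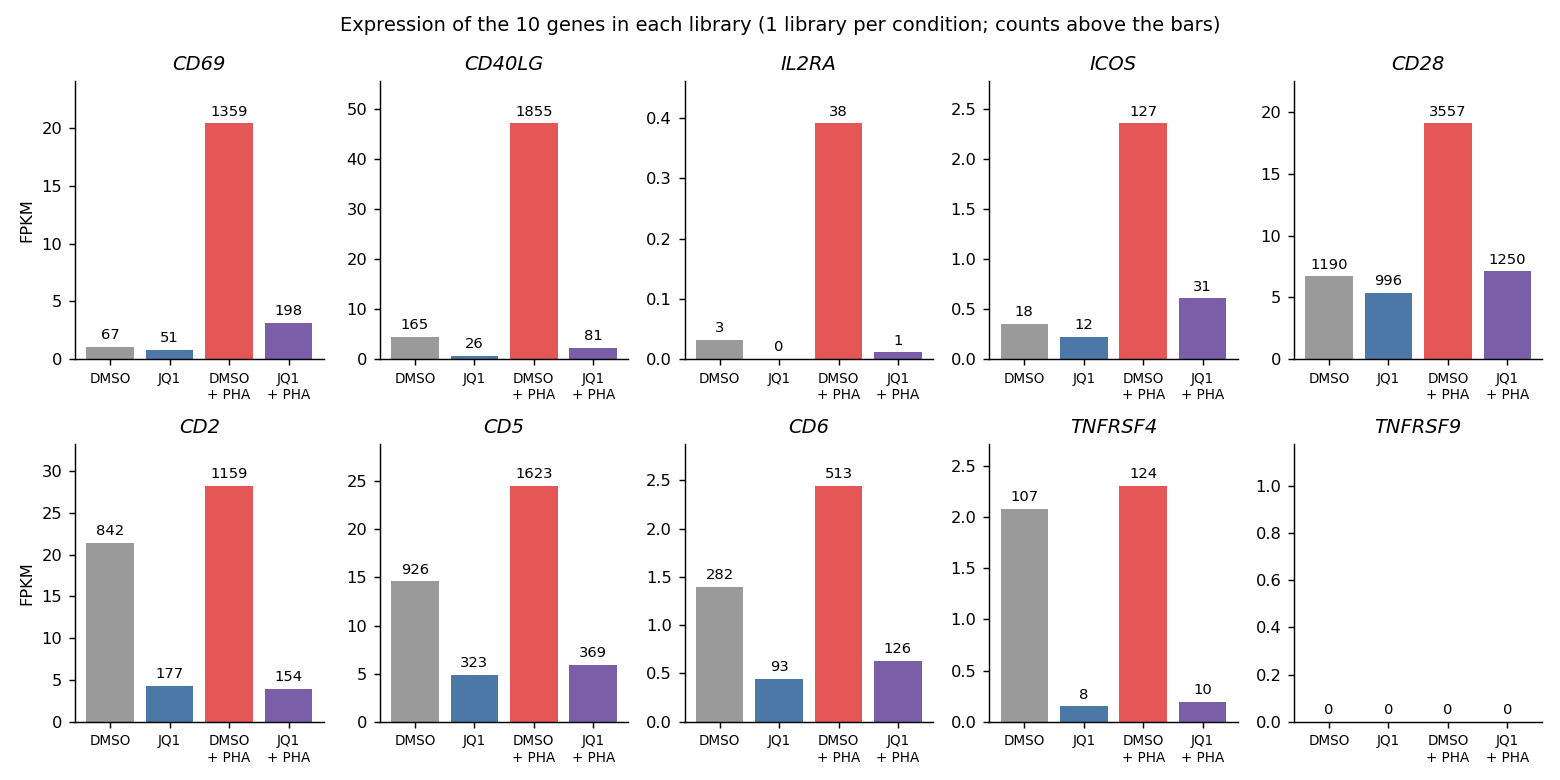
FPKM (vertical axes, each gene on its own scale from 0) of the 10 surface molecules in the 4 libraries, 1 bar per library, with the gene's count above each bar and no error bars because each condition has 1 library. The DMSO + PHA bar is the highest for each of the 9 genes detected, and CD69 ranges from 0.766 to 20.4 FPKM.

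CD69, an early activation marker and lectin-like receptor that retains T cells in tissue, lies on chromosome 12 from 9752486 to 9760901 on the minus strand of GRCh38 (ENSG00000110848). Its level was 1.05 FPKM with DMSO and 0.766 with JQ1 in the absence of PHA, and 20.4 and 3.14 in its presence, from 67, 51, 1359 and 198 counts. The DMSO + PHA library thus stood far above the other 3. Ratios between libraries are given as log2 ratios of the shares of all counts, with 95% exact (Clopper-Pearson) intervals that cover counting error only. Without PHA, the ratio of JQ1 to DMSO was -0.46 (-1.01 to 0.09), an interval that includes 0. With PHA it was -2.70 (-2.92 to -2.48), or 6.49-fold lower with JQ1. PHA still went with a higher level in JQ1-treated cells, by 2.04 (1.59 to 2.51) against 4.28 (3.92 to 4.65) in DMSO-treated cells.

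IL2RA completes the high-affinity IL-2 receptor and lies on chromosome 10 from 6010689 to 6062325 on the minus strand (ENSG00000134460). Its counts were 3 with DMSO and 0 with JQ1 in the absence of PHA, and 38 and 1 in its presence, which is 0.391 FPKM at most. Only the DMSO + PHA library was above the floor. DMSO + PHA against DMSO was 3.60 (1.94 to 5.94), and JQ1 + PHA against DMSO + PHA was -5.17 (-10.51 to -2.60), with wide intervals because the other side held 3 counts and 1 count. No ratio was computed for IL2RA between the libraries without PHA, or between the JQ1 libraries, because both were at or under 3 counts. A long noncoding RNA that overlaps IL2RA on the other strand, RP11-536K7.5, had 0 counts in every library.

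RefSeq (GRCh38.p14) gave the promoters of IL2RA, ICOS, CD28, CD2 and TNFRSF9, 5 of the 10 genes, and those of CD69, CD40LG, CD5, CD6 and TNFRSF4 are not shown. Promoters are shown for genes that differed in their response to PHA, each up to the first annotated transcript start, 5′ to 3′ on the gene's strand. Capitals mark 2 motifs, the GGAAA core that NFAT factors bind (TTTCC on the other strand) and the AP-1 site TGANTCA. Both strands of the 250 bases before the RefSeq start were searched, also for the TATA box TATAAA and for the RUNX site TGTGGT. Over 35116 windows of that length, 55.6% held GGAAA, 6.57% TGANTCA, 10.7% TATAAA and 11% TGTGGT. None of the 4 motifs was found for IL2RA, whose sequence covers chr10:6062371-6062617 on the minus strand.
IL2RA: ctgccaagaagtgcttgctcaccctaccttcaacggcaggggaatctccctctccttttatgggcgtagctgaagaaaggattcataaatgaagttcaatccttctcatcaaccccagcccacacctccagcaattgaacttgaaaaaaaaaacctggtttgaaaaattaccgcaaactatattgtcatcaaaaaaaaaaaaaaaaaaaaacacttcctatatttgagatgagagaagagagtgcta

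CD40LG, which engages CD40 on B cells and other antigen-presenting cells, occupies 136648193 to 136660390 on the plus strand of chromosome X (ENSG00000102245). Its level was 4.40 FPKM with DMSO and 0.662 with JQ1 in the absence of PHA, and 47.2 and 2.18 in its presence, from 165, 26, 1855 and 81 counts. Its 4 levels spanned 71.3-fold, the widest range among the genes that had counts in every library, against 26.6-fold for CD69 and 3.57-fold for CD28. Both libraries with JQ1 lay below the DMSO library, that with PHA included. JQ1 to DMSO was -2.73 (-3.39 to -2.13) without PHA, 6.64-fold lower, and -4.44 (-4.78 to -4.12) with it. PHA against no PHA was 3.43 (3.20 to 3.66) among cells given DMSO but 1.72 (1.07 to 2.42) among those given JQ1. CD40, its receptor, had 0 counts in all 4 libraries.

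CD28 binds CD80 and CD86 and is the main costimulatory receptor of naive T cells. The gene occupies 203706475 to 203738912 on the plus strand of chromosome 2 (ENSG00000178562). Levels were 6.70 FPKM with DMSO and 5.36 with JQ1 in the absence of PHA, and 19.1 and 7.11 in its presence, from 1190, 996, 3557 and 1250 counts. The other 3 libraries lay within a narrow range and the DMSO + PHA library was above it. JQ1 to DMSO was -0.32 (-0.44 to -0.20) without PHA and -1.43 (-1.52 to -1.34) with it, a 1.25-fold and a 2.69-fold lower level. PHA went with a 2.86-fold higher level in DMSO-treated cells, 1.51 (1.42 to 1.61), and with a 1.33-fold higher one in JQ1-treated cells, 0.41 (0.29 to 0.53).

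ICOS, an inducible relative of CD28 that is prominent on follicular helper T cells, starts 198 kb beyond the end of CD28, from 203936748 to 203961577 on the same strand of chromosome 2 (ENSG00000163600). It was at 0.349 FPKM with DMSO and 0.223 with JQ1 in the absence of PHA, and 2.36 and 0.608 in its presence, from 18, 12, 127 and 31 counts. Its order over the libraries was that of CD69, with fewer counts in each. JQ1 to DMSO was -0.65 (-1.84 to 0.48) without PHA, so no difference was detectable at this depth, and -1.95 (-2.57 to -1.38) with PHA. PHA against no PHA was 2.75 (2.04 to 3.55) with DMSO and 1.45 (0.45 to 2.55) with JQ1. ICOS, CD28 and CD40LG are among the genes that the study chose to show from these same libraries, so their direction is not independent evidence.

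The ICOS promoter covers chr2:203936513-203936747 and held GGAAA at 2 places, read as TTTCC, 194 and 37 bases before the RefSeq start, and TATAAA on the opposite strand at 222. The CD28 sequence covers chr2:203706389-203706474, the part of its window ahead of the first annotated start. In the CD28 window the single match was TGTGGT at 109 bases before the RefSeq start, outside the part shown. Such matches are descriptions of letters, not of binding.
ICOS: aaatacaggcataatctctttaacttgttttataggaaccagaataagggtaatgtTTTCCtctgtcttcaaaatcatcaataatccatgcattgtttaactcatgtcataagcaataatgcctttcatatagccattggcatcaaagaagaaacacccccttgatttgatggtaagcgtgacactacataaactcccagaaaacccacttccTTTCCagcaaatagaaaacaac
CD28: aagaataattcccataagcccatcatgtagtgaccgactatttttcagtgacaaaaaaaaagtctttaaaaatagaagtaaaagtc

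CD2 binds CD58 and occupies 116754385 to 116769228 on the plus strand of chromosome 1 (ENSG00000116824). Its level was 21.4 FPKM with DMSO and 4.31 with JQ1 in the absence of PHA, and 28.2 and 3.96 in its presence, from 842, 177, 1159 and 154 counts. Both libraries with JQ1 lay below both without it, and PHA went with a smaller difference within each pair. How many of all genes split in this way was not counted. Relative to DMSO, JQ1 gave -2.31 (-2.56 to -2.08) without PHA and -2.83 (-3.08 to -2.59) with it, 4.98-fold and 7.12-fold lower. PHA against no PHA was 0.40 (0.27 to 0.53) with DMSO and -0.12 (-0.44 to 0.20) with JQ1. In the 250 bases before its RefSeq start, CD2 held none of the 4 motifs, and the part ahead of the first annotated start covers chr1:116754180-116754384.
CD2: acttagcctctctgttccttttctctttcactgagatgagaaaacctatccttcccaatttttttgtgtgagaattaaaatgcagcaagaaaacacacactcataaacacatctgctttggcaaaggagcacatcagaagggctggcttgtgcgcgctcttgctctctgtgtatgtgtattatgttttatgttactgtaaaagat

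CD5, an inhibitory co-receptor on T cells, occupies 61102395 to 61127852 on the plus strand of chromosome 11 (ENSG00000110448). Its level was 14.6 FPKM with DMSO and 4.89 with JQ1 in the absence of PHA, and 24.5 and 5.90 in its presence, from 926, 323, 1623 and 369 counts. JQ1 to DMSO was -1.58 (-1.77 to -1.40) without PHA and -2.06 (-2.22 to -1.89) with it, 3.0-fold and 4.16-fold lower. Both JQ1 libraries were again the lowest. CD5 was higher with PHA by 0.74 (0.63 to 0.86) in DMSO-treated and by 0.27 (0.05 to 0.49) in JQ1-treated cells.

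CD6, which binds ALCAM on partner cells, lies 82.0 kb before CD5 on the same strand, from 60971680 to 61020377 (ENSG00000013725). It was at 1.40 FPKM with DMSO and 0.442 with JQ1, and after PHA at 2.44 and 0.634, from 282, 93, 513 and 126 counts. CD6 repeated the order of CD5 at a lower level per length. For CD6 the ratio of JQ1 to DMSO was -1.67 (-2.02 to -1.32) without PHA and -1.95 (-2.24 to -1.66) with it, 3.17-fold and 3.85-fold lower. PHA against no PHA was 0.80 (0.59 to 1.01) with DMSO and 0.52 (0.12 to 0.92) with JQ1.

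TNFRSF4, the OX40 receptor that sustains the response of activated T cells, lies on chromosome 1 from 1211326 to 1214138 on the minus strand (ENSG00000186827). Its level was 2.08 FPKM with DMSO but 0.149 with JQ1, and with PHA 2.30 but 0.196, from 107, 8, 124 and 10 counts. Here the libraries separated by JQ1 alone. The ratio of JQ1 to DMSO was -3.81 (-5.05 to -2.78) without PHA and -3.55 (-4.65 to -2.62) with it, 14.0-fold and 11.7-fold lower. Both intervals for PHA included 0, at 0.15 (-0.24 to 0.53) with DMSO and 0.40 (-1.09 to 1.95) with JQ1.

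TNFRSF9, the 4-1BB receptor, lies on chromosome 1 from 7915894 to 7943165 on the minus strand (ENSG00000049249) and had 0 counts in each of the 4 libraries. A count of 0 allows up to 3 counts, or 0.152 to 0.161 CPM, so expression was not detectable at this depth. A processed pseudogene that overlaps it on the other strand, RP5-892F13.2, had 0 counts as well. The 250 bases before its RefSeq start held GGAAA at 231 and 69 bases before the start, TGANTCA at 44 and TGTGGT at 80, and no match overlapped another. That whole window lies downstream of the first annotated start, within the annotated gene, so none of it is shown.

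**Figure D2:**
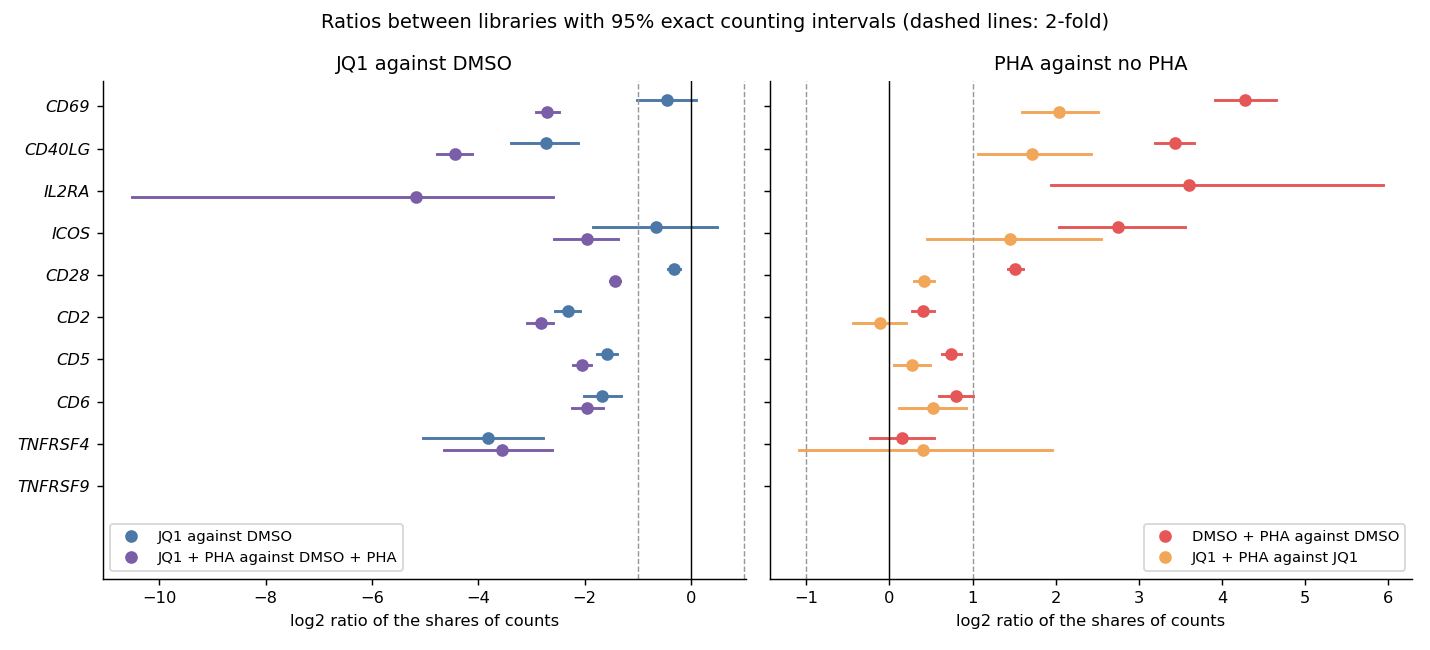
Log2 ratio of the share of counts (horizontal axis) for each gene, JQ1 against DMSO at left and PHA against no PHA at right, with points for the ratio between 2 libraries and lines for the 95% exact interval of counting error. In the left panel the points with PHA lie from -5.17 to -1.43, and TNFRSF9, with 0 counts, has no point.

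For counts over many genes, log2 ratios of FPKM + 0.1 were used over the 11503 genes with a mean of at least 1 FPKM in the 4 libraries. CD69, CD40LG, CD28, CD2, CD5, CD6 and TNFRSF4 passed this filter, and IL2RA (mean 0.109 FPKM), ICOS (0.884 FPKM) and TNFRSF9 did not. CD69, CD40LG, CD6 and TNFRSF4 were under 1 FPKM in the JQ1 library and passed through the others, so the counts that follow are descriptions. Without PHA, 5 of the 7 genes that passed were at least 2-fold lower with JQ1 and 0 at least 2-fold higher, beside 8.65% and 5.22% of all genes that passed. The exceptions were CD69 and CD28. With PHA, 7 of 7 were at least 2-fold lower with JQ1 and 0 higher, beside 8.00% and 3.69%. Of the 7, 5 were at least 2-fold lower in both JQ1 comparisons, as were 5.42% of all genes. Their median log2 ratio was -1.56 without PHA and -2.66 with it, and that of all genes was -0.01 and -0.02.

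In cells given DMSO, PHA went with at least 2-fold higher levels of 3 of the 7, CD69, CD40LG and CD28, and 0 were lower, beside 2.10% higher and 1.19% lower of all genes. In JQ1-treated cells 2 of the 7 were at least 2-fold higher, CD69 and CD40LG, and 0 lower, beside 1.04% and 1.03%. Their median log2 ratio was 0.76 in DMSO-treated and 0.40 in JQ1-treated cells. Neighboring comparisons share libraries: both PHA and JQ1 were set against the same DMSO library, so a high or low value there enters both.

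**Figure D3:**
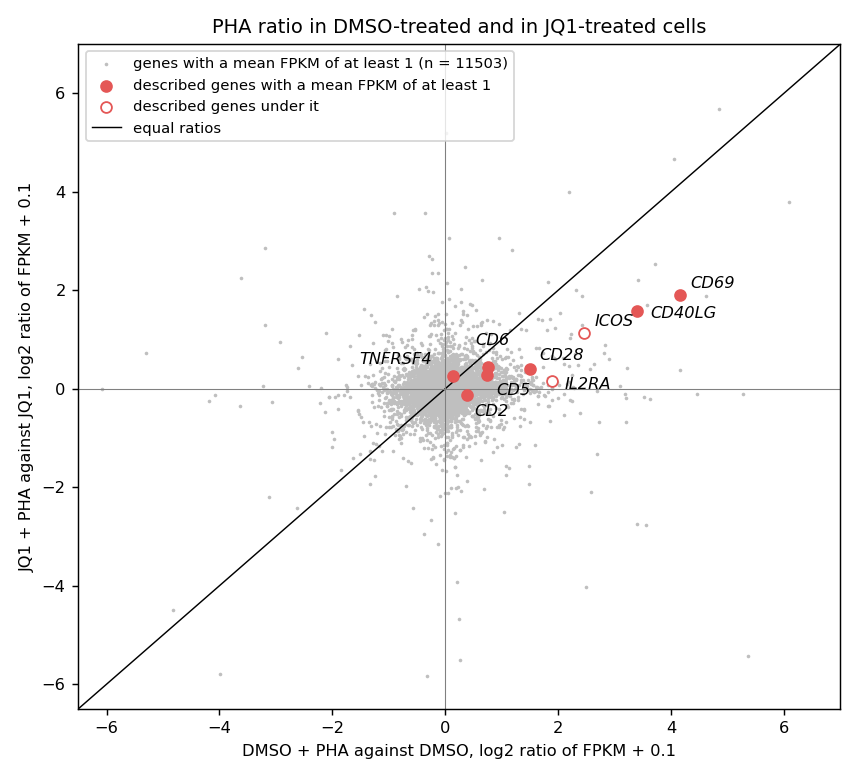
Log2 ratio of FPKM + 0.1 with PHA against without it in DMSO-treated cells (horizontal) and in JQ1-treated cells (vertical), with 1 grey point for each of the 11503 genes that passed the filter and red points for the surface molecules (open where the mean was under 1 FPKM). CD69, CD40LG, ICOS, CD28 and IL2RA lie to the right of and below the line of equal ratios, and CD2, CD5, CD6 and TNFRSF4 lie near the center.

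Whether the JQ1 ratio was of another size with PHA than without it was read from the ratio of the 2 ratios, with an exact conditional 95% interval for counting error. It was lowest for CD69, at -2.24 (-2.83 to -1.64) on the log2 scale, so the share of CD69 was 4.73-fold more reduced with PHA present. For CD40LG it was -1.71 (-2.41 to -0.97) and for CD28 -1.11 (-1.26 to -0.95). These 3 were past 2-fold, beside 2.93% of all genes in that direction and 1.99% in the other. CD2 and CD5 had smaller values, at -0.52 (-0.86 to -0.17) and -0.47 (-0.72 to -0.22), both with intervals under 0. For ICOS it was -1.30 (-2.60 to 0.04), for CD6 -0.28 (-0.74 to 0.18) and for TNFRSF4 0.25 (-1.30 to 1.85), and these intervals include 0. Because the comparison of PHA between JQ1- and DMSO-treated cells is the same ratio of 4 counts, it is not a separate result.

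The order of levels per gene length changed between conditions. With DMSO, CD2 was the highest at 21.4 FPKM, followed by CD5 at 14.6, CD28 at 6.70 and CD40LG at 4.40 FPKM. With DMSO + PHA, CD40LG moved to the top at 47.2 FPKM, and CD69 moved from the seventh place to the fourth, just ahead of CD28. In both libraries with JQ1, CD28 was the highest and CD5 the next, at 5.36 and 4.89 FPKM without PHA and at 7.11 and 5.90 FPKM with it. No spread between replicates is known against which close neighbors in these orders, such as CD6, ICOS and TNFRSF4 at 2.44, 2.36 and 2.30 FPKM with DMSO + PHA, could be separated.

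Likeness of profiles was measured over the 4 libraries as the root mean square difference of log2(FPKM + 0.1), after each gene was centered on its own mean. CD5 and CD6 were the most alike of the surface molecules, at 0.104, and CD5 was the third closest to CD6 of all genes that passed the filter. The gene closest to CD6 was KCNA3, which encodes the T-cell potassium channel Kv1.3, at 0.0296. CD2 and TNFRSF4 differed by 0.309 and CD2 and CD5 by 0.414. CD2 had NDST3 at 0.0535, GBP1 at 0.0606 and P2RY8 at 0.0737 as its closest genes, and CD5 had XAF1 at 0.0957, PUDP at 0.0972 and TMC8 at 0.101. Close to TNFRSF4 lay PIK3AP1 at 0.117, PECAM1 at 0.124 and MLKL at 0.129.

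The PHA-responsive genes had other companions. CD69 was closest to TRAC, the constant region of the T-cell receptor alpha chain, at 0.270, then to its variable segment TRAV8-4 at 0.281 and to PDCD1, which encodes PD-1, at 0.440. PDCD1 was at 0.13 FPKM with DMSO and 0.0155 with JQ1 in the absence of PHA, and 5.53 and 0.328 in its presence. Its levels other than 5.53 FPKM were under 1 FPKM, and without counts or an interval they are not read as ratios. The steep profile of CD40LG had no close match, with RP5-1028K7.2 at 0.453, ATP9A at 0.461 and GLDC at 0.659. CD28 was followed by PRKCH at 0.0835, which encodes protein kinase C eta, then by TUBA4A at 0.0902 and RPRD1B at 0.0988. With 4 points per profile, such likeness describes these libraries and says nothing of shared control.

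Genes next to the surface molecules on the chromosome were read as a comparison of place. VPS37C, 2.40 kb beyond CD5, had a JQ1 to DMSO ratio of 0.25 (-0.06 to 0.56) without PHA and 0.21 (-0.12 to 0.54) with it. IGSF3, 86.6 kb from CD2, was at 0.07 and 0.01, and RBM17, 26.7 kb from IL2RA, at 0.05 and 0.02. These neighbors thus differed little while CD2 and CD5 were several-fold lower. On the other side, CD2 had TTF2 at 291 kb, at -0.63 and -0.44, and CD5 had CD6. TMEM109, 48.2 kb from CD6, was at -0.99 and -1.19. SDF4, 2.77 kb from TNFRSF4, was lower by a smaller amount, at -0.60 without and -0.28 with PHA. ARHGEF6, 5.16 kb beyond CD40LG, was at -0.93 and -1.43 with JQ1 and at 0.50 with PHA in DMSO-treated cells. Near CD69, RP11-75L1.2 at 56.3 kb and CLEC2B at 92.1 kb were lower with JQ1 as well, at -1.21 and -1.10 without PHA and at -1.13 and -1.34 with it. DMSO + PHA against DMSO was -0.19 and 0.23 for these neighbors, far from the 4.28 of CD69.

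Related genes were counted in lists by role, and these counts are descriptions. CD244, TMIGD2, CD27, TNFRSF8, TNFSF8, LGALS9 and CD4 were under 1 FPKM in both libraries with JQ1 and passed the filter through the others. Of all genes that passed, 8.65% were at least 2-fold lower with JQ1 without PHA and 8.00% with it. Higher were 5.22% and 3.69%. With PHA in DMSO-treated cells, 2.10% were higher and 1.19% lower. Of 14 other costimulatory or coinhibitory receptors of the CD28 and immunoglobulin type, 5 passed the filter, and of these 3 were at least 2-fold lower with JQ1 without PHA and 5 with PHA, with 0 higher. Their medians were -2.41 and -3.15. CD244, a SLAM-family receptor, was at 2.34, 0.0776, 3.04 and 0.0410 FPKM in the order DMSO, JQ1, DMSO + PHA and JQ1 + PHA, and the SLAM-family receptor CD84 at 6.42, 1.13, 11.9 and 1.25 FPKM. The CD244 levels rested on 6 counts with JQ1 and on 3, the floor, with JQ1 + PHA. TMIGD2, the receptor of HHLA2, was at 3.28, 0.348, 3.42 and 0.184 FPKM, with 12 and 6 counts in the libraries with JQ1. SLAMF6 was the mildest of those named, at -0.58 (-0.80 to -0.36) without PHA and -1.24 (-1.44 to -1.04) with it. With PHA in DMSO-treated cells 0 of the 5 were 2-fold apart.

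Of 13 other TNF receptor family members 4 passed, and 2 were at least 2-fold lower with JQ1 in both comparisons, with medians of -0.86 and -1.81. TNFRSF8 (CD30), a marker of activated lymphocytes, was at 2.97, 0.136, 2.94 and 0.234 FPKM, separated by JQ1 as TNFRSF4 was. CD27, the receptor of CD70, was at 0.758, 0.264, 3.89 and 0.209 FPKM, with 8 and 6 counts in the libraries with JQ1. It was the 1 gene of the 4 that passed to be at least 2-fold higher with PHA in DMSO-treated cells. Of 14 TNF family ligands 3 passed, and of these 1 was lower with JQ1 in both comparisons, TNFSF8 (the ligand of CD30), at -1.79 (-2.37 to -1.24) and -2.70 (-3.26 to -2.17). TNFSF4 and LTA, which did not pass, were also at least 2-fold lower with JQ1 in both comparisons. TNFSF10 (TRAIL) was the 1 ligand of the 3 that passed to be higher with PHA, at 1.10 (0.79 to 1.41) in DMSO-treated cells.

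The ligands and partners of the surface molecules comprised 10 genes, of which 6 passed. Without PHA 1 was at least 2-fold lower with JQ1 and 2 were higher, with PHA 3 were lower and 0 higher, and the medians were -0.83 and -1.06. LGALS9, a galectin, was at -1.84 (-2.10 to -1.58) and -2.24 (-2.49 to -2.0). CD48, the ligand of CD244, and ALCAM, the ligand of CD6, were past 2-fold with PHA alone, at -1.50 (-1.64 to -1.36) and -1.37 (-1.48 to -1.25). CD59, a complement inhibitor, went the other way without PHA, at 1.79 (1.62 to 1.97), and was at -0.01 with PHA. CD80, CD86 and ICOSLG, the ligands of CD28 and ICOS on antigen-presenting cells, named here for that role, had 0 to 13 counts in any library.

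Signaling genes downstream of the receptors moved less as lists. Of 21 genes below CD28 and ICOS 19 passed. Without PHA, 2 of them were at least 2-fold lower with JQ1 and 1 was higher, beside 8.65% and 5.22% of all genes. With PHA 3 were lower and 1 was higher, beside 8.00% and 3.69%. The list medians were 0.35 and 0.13. GRAP2, the adaptor Gads, was at 14.9, 2.12, 13.7 and 2.13 FPKM and the kinase LCK at 51.7, 14.4, 47.7 and 13.9 FPKM. PRKCQ, protein kinase C theta, was higher with JQ1 at 1.26 (1.13 to 1.38) without PHA and 0.74 (0.63 to 0.86) with it. All 9 genes of the TRAF adaptors and NF-κB-inducing kinase list passed, and 1 was lower with JQ1 in both comparisons, TRAF5, at -1.44 (-1.58 to -1.30) and -1.56 (-1.69 to -1.43), with list medians of -0.03 and -0.04. With PHA in JQ1-treated cells TRAF3 was higher by 1.28 (1.12 to 1.45).

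Among 10 genes of the IL-2 receptor and its signaling 5 passed, and 1 was higher with JQ1 in both comparisons, JAK1, at 1.42 (1.36 to 1.49) and 1.15 (1.09 to 1.21), with list medians of 0.48 and -0.35. IL2RB, the receptor's beta chain, was at 0.507, 1.06, 1.92 and 1.48 FPKM, and IL2 itself had 0 counts in all libraries. Of 12 adaptors and regulators linked to CD2, CD5 and CD6 11 passed, and 0 were 2-fold apart with JQ1 without PHA and 1 was lower with PHA, UBASH3B, with list medians of -0.04 and -0.15. UBASH3B, a phosphatase that dampens receptor signaling, was at 5.45, 3.76, 15.9 and 4.13 FPKM. The tyrosine phosphatase PTPN6 was the other of the 2 that were higher with PHA in DMSO-treated cells, at 1.11 (0.99 to 1.23).

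Of 18 other activation-linked surface molecules 17 were in the files under that name and 12 passed, with 4 at least 2-fold lower with JQ1 without PHA, 5 lower with PHA and 0 higher, and a median of -0.56 in both. SLC7A5, a subunit of an amino acid transporter, was at -1.55 and -1.43, and CD83 at -1.17 and -1.43. CD82, a tetraspanin, was higher with PHA in DMSO-treated cells at 1.49 (1.35 to 1.64).

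The T-lineage markers were set beside these as the level of the line's general T-cell transcripts, and their part in the results was not tested. Of 10, 2 were at least 2-fold lower with JQ1 without PHA and 3 with PHA, beside 8.65% and 8.00% of all genes. There were 0 higher, and the medians were -0.72 and -0.62. TRAC had the lowest ratio of them with PHA, at -2.14 (-2.22 to -2.07), and -0.97 (-1.18 to -0.76) without it, and at 221 against 50.1 FPKM it made up much of the gap between the summed levels with PHA. CD3E, an invariant chain of the receptor complex, was at -1.13 (-1.19 to -1.08) and -1.16 (-1.22 to -1.11), CD247 at -0.86 and -1.04, and CD4 at -1.42 and -0.88. CD79A was at -2.81 (-3.27 to -2.39) and -2.64 (-3.12 to -2.19).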

How the data were processed

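RNA-seq of 4 Jurkat libraries, 1 per condition by the labels, was used. The authors aligned reads to GRCh38 with Hisat2 2.0.4, and the submitters' processing notes also list TopHat2 2.0.9 and Cufflinks 2.1.1. The counting program, its strand setting and the annotation release are not given in the sources used here. The deposited values are counts per gene, without normalization, and FPKM, which the authors computed from counts, gene length and total count. Here log2 ratios of FPKM + 0.1 were taken for genes with a mean of at least 1 FPKM, and genes past 2-fold were counted. Share ratios of counts carry 95% exact intervals, which cover counting error only. Named from each list were at most 4 genes past 2-fold, by size, with nearest neighbors and the 3 closest profiles. Genes and lists were chosen with earlier results of these data known. Alternatives were the pseudocount, the filter, the fold threshold, and scaling by edgeR 4.0.16 TMM factors, DESeq2 1.42.0 size factors or the median gene. Python 3.11.15 with scipy 1.17.1 and R 4.3.3 were used, and steps were tested on simulated data. Some named genes are not reported here.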

Additional observations from a re-analysis of the deposited data

Results flagged for a closer look

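Of the 91 listed genes with a mean of at least 1 FPKM, 9 had a JQ1 to DMSO ratio that pointed one way without PHA and the other way with it, each with a 95% exact interval of counting error on one side of 0. The difference was not tested, since each condition has 1 library. The share of all genes with such opposite ratios was not computed, so whether 9 of 91 is many cannot be said. With many counts, the interval lies on one side of 0 even for a small ratio. Among the 9 are 3 of the genes named above. TRAF3, an adaptor of TNF receptors, was at -0.50 (-0.69 to -0.32) without PHA and 0.36 (0.22 to 0.50) with it. IL2RB was at 1.06 (0.59 to 1.55) and -0.38 (-0.68 to -0.07), and CD82 at 0.93 (0.78 to 1.09) and -0.39 (-0.50 to -0.27).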

How the results depend on the processing

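Without PHA, the number of surface molecules at least 2-fold lower with JQ1 was 5, and 3 with a filter of mean FPKM of at least 5 and 3 with a 4-fold threshold, as fewer genes could qualify. With PHA in DMSO-treated cells, 3 were higher, and 5 with a filter of 0.1 FPKM, 5 without a filter and 5 with a 1.5-fold threshold. In JQ1-treated cells 2 were higher with PHA, and 1 with a pseudocount of 1 and 0 with a 4-fold threshold. The other 35 alternatives for these counts and for the ratio of ratios, TMM, DESeq2 and median scaling included, stayed within 1.5 times. Of 170 alternative values for single genes, 155 lay no farther from the value with a pseudocount of 0.1 than 0.5 of the width of the counting interval. The other 15, all with a pseudocount of 1, lay farther, and 0 ratios with an interval off 0 changed direction. Wide intervals hide large moves: IL2RA with PHA against without it, in cells given DMSO, was 1.89, and 0.43 with a pseudocount of 1. No paired analysis was possible because each condition has 1 library, so the groups compared share only 1 replicate number. Differences between cultures are unknown, and genes with few counts (IL2RA, ICOS, TNFRSF4) are limited by depth.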
